A study of Homo sapiens with 6 samples.

Results

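The EGF receptor family and its ligands were followed on 6 expression arrays of MDA-MB-231, a triple-negative breast cancer line labelled as basal. The set holds 10 genes, listed by name: the ligands HBEGF, EREG, AREG, TGFA and NRG1, the receptors EGFR, ERBB2 and ERBB3, the receptor inhibitor ERRFI1 and the sheddase ADAM17. All probes that the platform annotation gives to these genes were taken, which were 25 of the 47322 probes on the array, and 9 of the 10 genes were among the 11426 genes tested. AREG, which encodes amphiregulin, had no probe named in that annotation and was not analysed here.

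The antagomiR-138 group was 3 samples of MDA-MB-231 cells transduced with 6 transduction units of lentivirus that expresses an inhibitory RNA pairing with miR-138. The scrambled control group was 3 samples transduced with the same dose of virus carrying a scrambled construct. Both groups were harvested 72 h later, on day 3. Per the methods, the inhibitor was transcribed from an H1 promoter in a vector that also carries a green fluorescent reporter and a puromycin resistance gene, so all 6 samples are transduced cells. Whether the array samples were selected with puromycin is not stated there. Separate cultures are stated nowhere for the samples within a group, so each p-value rests on a spread between samples that may be technical.

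Ligands of the EGF family are made as membrane-bound precursors, and metalloproteinases of the ADAM family release the active part from the cell surface. The released ligand binds EGFR, ERBB3 or ERBB4, the bound receptor pairs with another member of the family, and the pair phosphorylates itself and recruits adaptors that turn on the RAS-MAP kinase, PI3 kinase and STAT pathways. ERBB2 has no known soluble ligand and serves as the partner of the others, and ERBB3 has little kinase activity of its own. Triple-negative breast cancers lack amplified ERBB2 and often express EGFR.

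The microRNA that the construct pairs with is shown because it defines the comparison. Its mature form, hsa-miR-138-5p, is listed by RefSeq at 2 genes of GRCh38.p14, MIR138-1 at chr3:44114234-44114256 and MIR138-2 at chr16:56858527-56858549, both on the plus strand, with the same sequence at each. Capitals mark the seed, bases 2 to 8.
hsa-miR-138-5p: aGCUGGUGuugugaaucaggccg
No array of the 6 detected the probes for MIR138-1 and MIR138-2. Labelled cRNA does not report a mature microRNA, so the knockdown itself was not measured here.

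Promoter windows are shown for the ligand genes that rose, HBEGF and EREG, and for 2 of the receptor genes that fell, EGFR and ERBB2. Each window runs from 250 bases before to 50 bases after a RefSeq start site in GRCh38.p14. Windows of 8 of the 10 genes were examined here. NRG1 and ERBB3 were not among them, which does not mean that RefSeq lists no start site for them. Of the EGFR windows, that of the first start site is shown. Capitals mark matches on either strand to the GC box GGGCGG, the TATA box TATAAA or the AP-1 motif TGANTCA.
HBEGF, chr5:140346554-140346853, minus strand: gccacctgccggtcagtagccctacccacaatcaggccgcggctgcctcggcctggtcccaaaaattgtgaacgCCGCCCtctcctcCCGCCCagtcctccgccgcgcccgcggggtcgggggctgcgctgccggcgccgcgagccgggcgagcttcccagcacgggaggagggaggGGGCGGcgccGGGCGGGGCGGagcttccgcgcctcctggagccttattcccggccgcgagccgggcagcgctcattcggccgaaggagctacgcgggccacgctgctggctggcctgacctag
EREG, chr4:74364895-74365194, plus strand: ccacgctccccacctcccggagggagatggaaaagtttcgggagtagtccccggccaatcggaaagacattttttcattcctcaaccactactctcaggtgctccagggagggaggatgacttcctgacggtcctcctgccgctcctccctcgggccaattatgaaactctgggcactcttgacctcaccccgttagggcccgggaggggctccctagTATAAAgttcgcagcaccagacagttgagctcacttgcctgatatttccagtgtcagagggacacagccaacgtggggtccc
EGFR, chr7:55018767-55019066, plus strand: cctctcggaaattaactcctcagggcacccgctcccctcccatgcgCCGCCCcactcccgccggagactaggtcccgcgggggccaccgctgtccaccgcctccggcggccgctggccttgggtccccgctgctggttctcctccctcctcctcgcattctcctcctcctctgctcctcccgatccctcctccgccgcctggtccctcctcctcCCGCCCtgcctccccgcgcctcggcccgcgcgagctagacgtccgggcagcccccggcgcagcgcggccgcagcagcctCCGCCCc
ERBB2, chr17:39687844-39688143, plus strand: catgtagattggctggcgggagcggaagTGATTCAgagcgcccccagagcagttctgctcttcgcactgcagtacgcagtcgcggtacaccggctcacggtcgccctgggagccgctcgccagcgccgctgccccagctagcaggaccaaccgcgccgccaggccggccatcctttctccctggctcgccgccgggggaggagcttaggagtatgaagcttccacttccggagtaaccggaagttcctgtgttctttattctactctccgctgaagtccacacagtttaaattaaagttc
The HBEGF window held 5 matches to the GC box, of which a pair share a base, and the EGFR window held 3. A GC box was present in 45.0% of all 35116 windows of this length. The EREG window held 1 TATA box, present in 11.5% of all windows, and the ERBB2 window held 1 AP-1 match, present in 7.71%. None of the 4 windows held the cyclic AMP response element TGACGTCA (1.85% of all windows), a CArG box (1.29%) or an NF-kB motif (11.3%). A match is only a description of the letters, and the arrays did not measure binding at any of these windows. For ERBB2 only the window shown was examined here, which does not mean that RefSeq lists no other start site. Whether the transcripts read by the probes of these genes start at the windows shown was not tested.

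Values below are normalized log2 signals, obtained from the deposited intensities with background estimated from the detection p-values, quantile normalization and an offset of 16. Probes detected (detection p under 0.05) on 3 or more of the 6 arrays entered the fit, and the brightest of them stands for its gene. Every fold change sets antagomiR-138 over scrambled control and was tested with limma over all 11426 genes, with a threshold of 0.05 after Benjamini-Hochberg adjustment. Levels of different probes cannot be compared with each other. The antagomiR-138 arrays detected 19263 to 20430 probes and the scrambled control arrays 19377 to 20247, and the signals of all genes correlated at 0.9955 to 0.9963 within groups and at 0.9623 to 0.9639 between groups, a correlation across genes, which are not independent replicates. The mesenchymal markers of the line, among them VIM, CD44 and AXL, were above background on every array (8 of 8). By limma 2 of them were higher and 3 lower in antagomiR-138 cells, from AXL at −0.80 to MSN at 0.42 on the log2 scale. Of 10 luminal markers ESR1, PGR, FOXA1, TFF1 and ELF5 did not enter the fit and KRT19, AGR2, TFF3, GATA3 and SPDEF did.

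Upon miR-138 knockdown, by the brightest probe of each gene, 2 ligand genes and the sheddase gene rose. The 3 receptor genes, the inhibitor gene and 2 other ligand genes fell. For NRG1, counted here as lower, the other entering probes gave log2 fold changes of 0.18 and 0.33, not past the test. Of the 9 genes tested, 3 were higher and 6 lower. Over all genes 60.1% passed this test, 30.9% higher and 29.1% lower, so a high count of passing genes is the background of this comparison. The groups did not overlap in any of the 9 genes, as in 66.6% of all genes. The median log2 fold change of the 9 genes was −0.40, against 0.02 over all genes. In such bulk samples, fewer cells with a transcript and less of it per cell cannot be told apart.

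**Figure D1:**
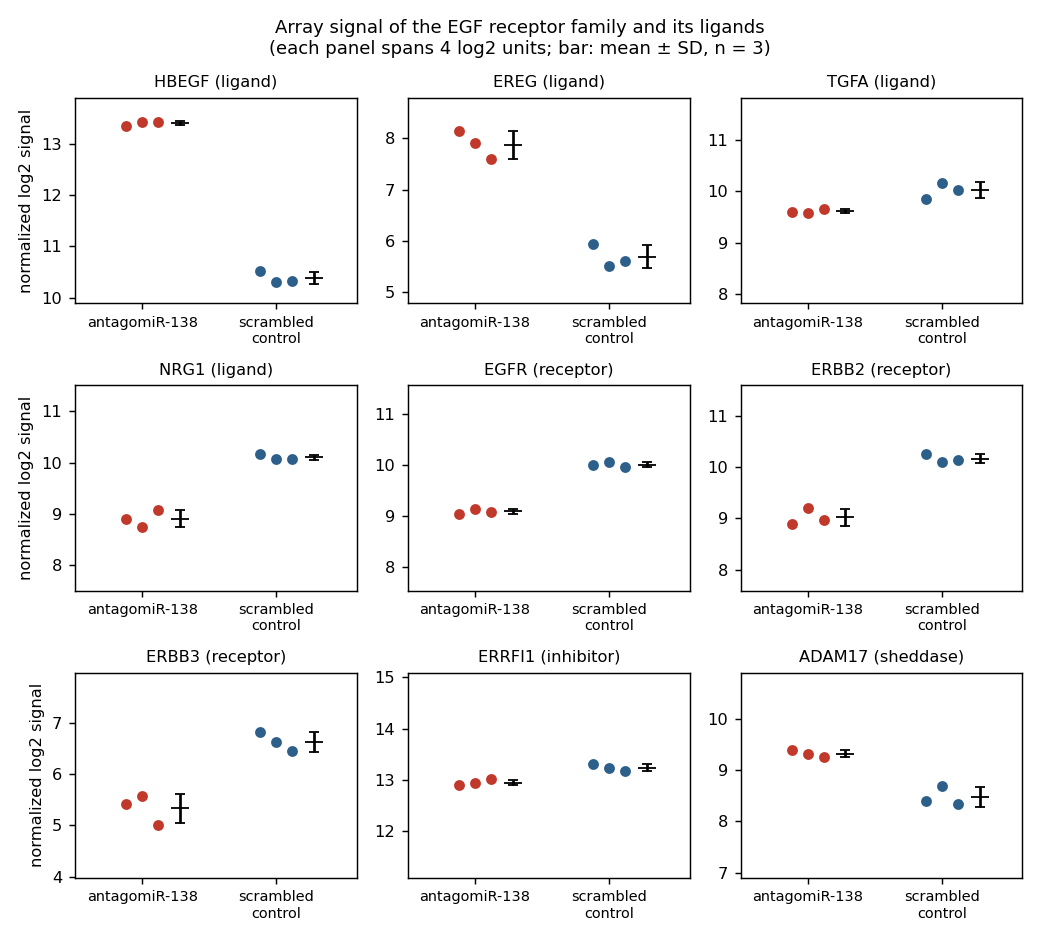
Normalized log2 signal of the 9 tested genes in each antagomiR-138 and scrambled control sample, 1 panel per gene, each spanning 4 log2 units. Points are samples and bars are the mean ± SD (n = 3). HBEGF and EREG show the widest separation, with antagomiR-138 above, and ERRFI1 and TGFA the narrowest.

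HBEGF, which encodes heparin-binding EGF-like growth factor, had the largest change of the set. Its log2 signal was 13.35, 13.42 and 13.43 in antagomiR-138 samples 1, 2 and 3, against 10.51, 10.30 and 10.32 in scrambled control samples 1, 2 and 3. Before normalization the intensity was 11884, 10796 and 9598.8 in antagomiR-138 cells, against 1416.6, 1232.6 and 1320 in scrambled control cells. The lowest antagomiR-138 sample lay 2.84 log2 units above the highest control. HBEGF rose 8.15-fold (log2 fold change 3.03 ± 0.0742 SE, where SE is the standard error; adjusted p = 1.25e-06 from limma), which placed it at rank 6 of the 11426 genes by size of rise.

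EREG, which encodes epiregulin, a ligand of EGFR and ERBB4, was the other ligand gene that rose. The log2 signal was 8.14, 7.90 and 7.59 in antagomiR-138 samples, against 5.94, 5.51 and 5.61 in scrambled control samples. The control values lay close to background, with detection p-values of 0.00519, 0.0195 and 0.0247, whereas all antagomiR-138 samples had a detection p of 0. EREG rose 4.57-fold (log2 fold change 2.19 ± 0.163 SE, adjusted p = 4.72e-05), at rank 31 by size of rise. The size of the change depends on the treatment of background. The log2 fold change of EREG was 1.65 with an offset of 50. It was 2.64 with no further background correction of the deposited intensities and an intensity floor of 16.

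TGFA, which encodes transforming growth factor alpha, another ligand of EGFR, changed little and in the other direction. Its brighter probe gave 9.60, 9.58 and 9.66 in antagomiR-138 samples, against 9.86, 10.17 and 10.03 in scrambled control samples. The groups were separated by 0.19 log2 units. By limma TGFA fell by 0.40 log2 units (SE 0.0867, adjusted p = 0.00598), and its other probe fell by 0.33 (adjusted p = 0.0190 over all 20051 entering probes, of which 49.9% passed). A change of this size is under 1.5-fold.

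NRG1, which encodes neuregulin 1, a ligand of ERBB3 and ERBB4 with many isoforms, gave different answers by probe. The brightest of its 7 probes, annotated to NM_013962, gave 8.90, 8.74 and 9.08 in antagomiR-138 samples, against 10.16, 10.07 and 10.08 in scrambled control samples. By this probe NRG1 was 2.30-fold lower (log2 fold change −1.20 ± 0.0931 SE, adjusted p = 5.58e-05). A second probe, annotated to AF176921, gave 9.19, 9.10 and 9.15 in antagomiR-138 samples, against 9.03, 8.92 and 8.95 in scrambled control samples. Its log2 fold change was 0.18 (95% interval 0.03 to 0.33, adjusted p = 0.0549 over all entering probes), so the groups did not overlap but the test was not passed. The remaining entering probe, annotated to NM_013960, lay near background, with a log2 fold change of 0.33 (95% interval −0.06 to 0.72, adjusted p = 0.137). The other 4 NRG1 probes, among them another annotated to NM_013962, were not above background on any array. With the mean of the entering probes the log2 fold change of NRG1 was −0.23 (adjusted p = 0.0403 from limma). The size of the change and, between single probes, its sign thus rest on the probe chosen.

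**Figure D2:**
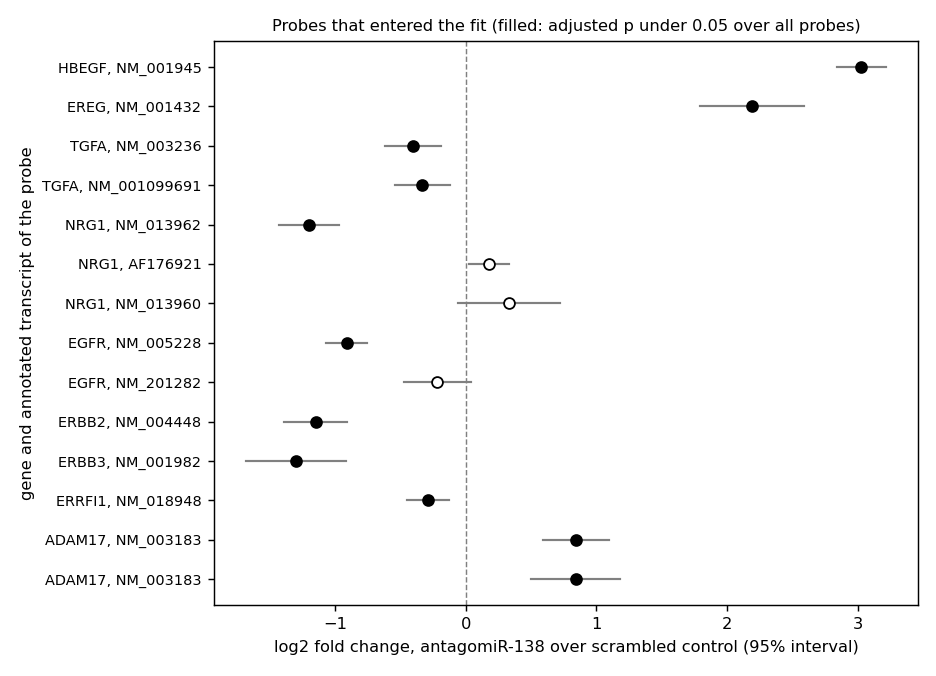
Log2 fold change, antagomiR-138 over scrambled control, of the 14 probes of the set that entered the fit, with 95% intervals from limma and 1 row per probe labelled by gene and annotated transcript. Filled points passed an adjusted p of 0.05 over all entering probes. Both TGFA probes lie below 0 and both ADAM17 probes above it, while the 3 NRG1 probes lie on both sides.

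All 3 receptor genes tested were lower in antagomiR-138 cells. EGFR, the receptor of HBEGF, EREG and TGFA, gave 9.04, 9.15 and 9.09 in antagomiR-138 samples, against 10.00, 10.06 and 9.95 in scrambled control samples by the probe annotated to NM_005228, the transcript of the full-length receptor. The spread within each group was small (SD 0.05 in both) and the groups were 0.81 log2 units apart. EGFR was 1.88-fold lower (log2 fold change −0.91 ± 0.0592 SE, adjusted p = 2.78e-05).

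The other 3 EGFR probes are annotated to NM_201282 and NM_201284, transcripts that encode shorter forms without the kinase domain. A probe annotated to one transcript can also pair with others, and no sequence was available here to test that. One NM_201282 probe gave 6.23, 5.87 and 6.09 in antagomiR-138 samples, against 6.38, 6.18 and 6.28 in scrambled control samples, with a log2 fold change of −0.22 (95% interval −0.47 to 0.04, adjusted p = 0.139 over all entering probes). Its groups overlapped, and the other NM_201282 probe was not above background on any array. The NM_201284 probe was too dim to enter the fit, with 5.40, 5.39 and 5.44 in antagomiR-138 samples, against 4.79, 4.77 and 4.74 in scrambled control samples. It was above background on 2 antagomiR-138 arrays and on no control array, and was at least 1.02-fold higher, a bound that sets the antagomiR-138 mean against the lowest signal a control array could call. With the mean of the entering probes, the log2 fold change of EGFR was −0.56.

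ERBB2, which encodes the HER2 receptor, gave 8.89, 9.21 and 8.96 in antagomiR-138 samples, against 10.26, 10.10 and 10.14 in scrambled control samples. It was 2.21-fold lower (log2 fold change −1.15 ± 0.0963 SE, adjusted p = 7.92e-05 from limma). The other 2 ERBB2 probes, among them another annotated to the same transcript NM_004448, were not above background on any array. ERBB3, the receptor of neuregulins that signals through its partners, had the lowest log2 fold change of the set but a dim signal. It gave 5.41, 5.57 and 5.02 in antagomiR-138 samples, of which 2 were above background, against 6.82, 6.62 and 6.45 in scrambled control samples, all above background. The log2 fold change was −1.30 (SE 0.158, adjusted p = 0.000408). It was −0.84 with an offset of 50 and −1.84 with no further background correction and an intensity floor of 16. Neither the size of the fall nor its rank is therefore well fixed. With an offset of 50, NRG1 (−1.14), ERBB2 (−1.10) and EGFR (−0.87) fell more. Without antagomiR-138 sample 3, NRG1 also fell more (−1.29, against −1.14 for ERBB3). Another ERBB3 probe, annotated to NM_001005915, was detected on no antagomiR-138 array but on 2 control arrays. Its mean was at least 1.1-fold lower, but its groups overlapped. The remaining ERBB3 probe, annotated to the same transcript, was not above background on any array. ERBB4, the remaining receptor of the family, was not above background on any array.

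**Figure D3:**
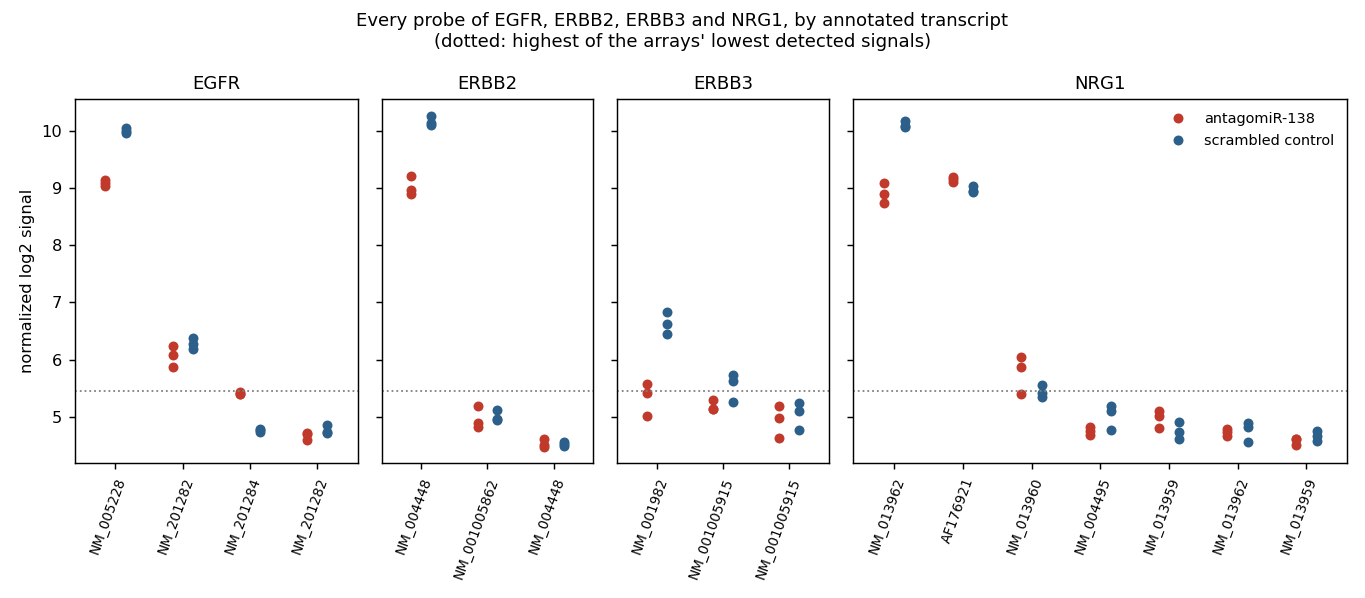
Normalized log2 signal of every probe of EGFR, ERBB2, ERBB3 and NRG1 in the 3 antagomiR-138 and 3 scrambled control samples, by annotated transcript; each point is a sample. The dotted line is the highest, over the 6 arrays, of the lowest signal called above background. The brightest probe of each gene is lower in antagomiR-138, and most other probes lie near or under the line.

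ERRFI1, which encodes MIG6, an inhibitor that binds the EGFR kinase domain and is induced by receptor signalling, was bright and nearly level. The log2 signal was 12.90, 12.94 and 13.01 in antagomiR-138 samples, against 13.31, 13.23 and 13.17 in scrambled control samples. The groups were 0.16 log2 units apart. ERRFI1 fell by 0.29 (SE 0.0632, adjusted p = 0.00650), a change of 1.22-fold.

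ADAM17, the protease that sheds the precursors of HBEGF, EREG and TGFA, gave 9.39, 9.31 and 9.27 in antagomiR-138 samples, against 8.41, 8.70 and 8.33 in scrambled control samples. It rose 1.79-fold (log2 fold change 0.84 ± 0.102 SE, adjusted p = 0.000401). A second probe gave 6.91, 7.10 and 6.82 in antagomiR-138 samples, against 5.94, 5.98 and 6.40 in scrambled control samples, and the same log2 fold change of 0.84 (adjusted p = 0.00271 over all entering probes). Both probes thus separated the groups, and another was above background on 1 array only.

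The remaining ligands of the family were at or near background. EGF was detected on no antagomiR-138 array but on all 3 scrambled control arrays, and its probe was at least 1.24-fold lower. It entered the fit only through the control arrays, so no test is given. BTC, which encodes betacellulin, was too dim to enter the fit and lay at 5.68, 5.41 and 5.50 in antagomiR-138 samples, against 4.79, 4.83 and 5.22 in scrambled control samples. It was above background on 2 antagomiR-138 arrays and on no control array, at least 1.10-fold higher. NRG3 had a log2 fold change of 0.36 (95% interval −0.05 to 0.76, adjusted p = 0.113), and its groups overlapped. NRG2 and NRG4 were not above background on any array, and EPGN had no probe named in the annotation.

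Besides ADAM17, 13 sheddases and shedding cofactors were listed, of which 12 were tested, with 4 higher, 6 lower and 2 not past the test (median log2 fold change −0.25). The counts in this and the following lists stand beside 60.1% of all genes passing, 30.9% higher and 29.1% lower. ADAM19, a protease that processes neuregulin precursors, gave 12.33, 12.35 and 12.42 in antagomiR-138 samples, against 9.80, 9.88 and 9.86 in scrambled control samples. It rose 5.74-fold (log2 fold change 2.52 ± 0.0570 SE, adjusted p = 9.80e-07), more than any other gene of this list. FRMD8, a partner of the iRhom proteins that bring ADAM17 to the cell surface, rose by 0.46 (adjusted p = 0.00103). NRDC, which encodes nardilysin, an enhancer of HB-EGF shedding, stood at 0.16 on the log2 scale (adjusted p = 0.0362), and 12 of 20 other settings ended its call, among them the leaving out of any single sample (adjusted p from 0.0503 to 0.0983). ADAM15, a related membrane protease, fell by 1.09 on its brightest probe and by 0.87 and 0.74 on 2 others, whereas the remaining probe gave 0.50 (adjusted p = 0.106 over all entering probes). TIMP3, an inhibitor of ADAM17, fell by 0.76 and ADAM10, the sheddase of EGF and betacellulin, fell by 0.58. The count of higher genes in this list was 2 with any single sample left out.

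Of 22 genes that end or limit receptor signalling, 20 were tested, with 3 higher, 8 lower and 9 not past the test (median −0.12). LRIG1, a membrane protein that promotes degradation of the receptors, rose by 0.80 (adjusted p = 9.07e-05). USP8, a deubiquitinase of EGFR, stood at 0.23 on the log2 scale (adjusted p = 0.0330), a call that 11 of 20 other settings ended, among them the leaving out of each sample but antagomiR-138 sample 1 (adjusted p up to 0.0989). CBL, the ubiquitin ligase of activated EGFR, gave 9.35, 9.50 and 9.63 in antagomiR-138 samples, against 10.54, 10.48 and 10.47 in scrambled control samples. CBL fell by 1.00 (SE 0.0820, adjusted p = 7.10e-05). RNF41, a ubiquitin ligase of ERBB3, fell by 0.78 and the endocytic adaptor gene EPS15 fell by 0.67. The count of lower genes was 5 without antagomiR-138 sample 3, and the count of higher genes was 1 without scrambled control sample 2 or antagomiR-138 sample 2.

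Of 27 receptor adaptors and effectors, 21 were tested, with 2 higher, 10 lower and 9 not past the test (median −0.02). PTPN11, which encodes the phosphatase SHP2 of the RAS pathway, gave 10.86, 10.86 and 10.73 in antagomiR-138 samples, against 12.40, 12.42 and 12.40 in scrambled control samples. It fell by 1.59 (SE 0.0610, adjusted p = 4.74e-06). PLCG2, a phospholipase C gene, fell by 1.18 and the transcription factor gene STAT5B by 0.93. GRB2, the adaptor that links receptors to the RAS exchange factor SOS1, rose by 0.35 (adjusted p = 0.00708). SOS1 itself stood at 0.26 on the log2 scale (adjusted p = 0.0440), a call that 12 of 19 other settings ended, among them the leaving out of each scrambled control sample or of antagomiR-138 sample 2 (adjusted p up to 0.181 over all settings). The count of higher genes in this list was 1 without scrambled control sample 2 or 3 or antagomiR-138 sample 2.

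Of 10 genes commonly induced by MAP kinase signalling, 9 were tested, with 1 higher, 5 lower and 3 not past the test (median −0.18). DUSP6, which encodes a phosphatase of ERK, gave 11.53, 11.48 and 11.56 in antagomiR-138 samples, against 12.15, 12.17 and 12.20 in scrambled control samples. DUSP6 fell by 0.65 on its brighter probe (SE 0.0544, adjusted p = 7.67e-05). Its other probe gave −0.35 and was not past the test (adjusted p = 0.134 over all entering probes). CCND1, the cyclin D1 gene, fell by 0.46. PHLDA1 fell by 0.58 on its brighter probe, but its other probe gave 0.37 (adjusted p = 0.00625 over all entering probes), while averaging both probes gave −0.10 (adjusted p = 0.182). SPRY4, of the Sprouty inhibitors of RAS signalling, rose by 0.58 (adjusted p = 0.000439).

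**Figure D4:**
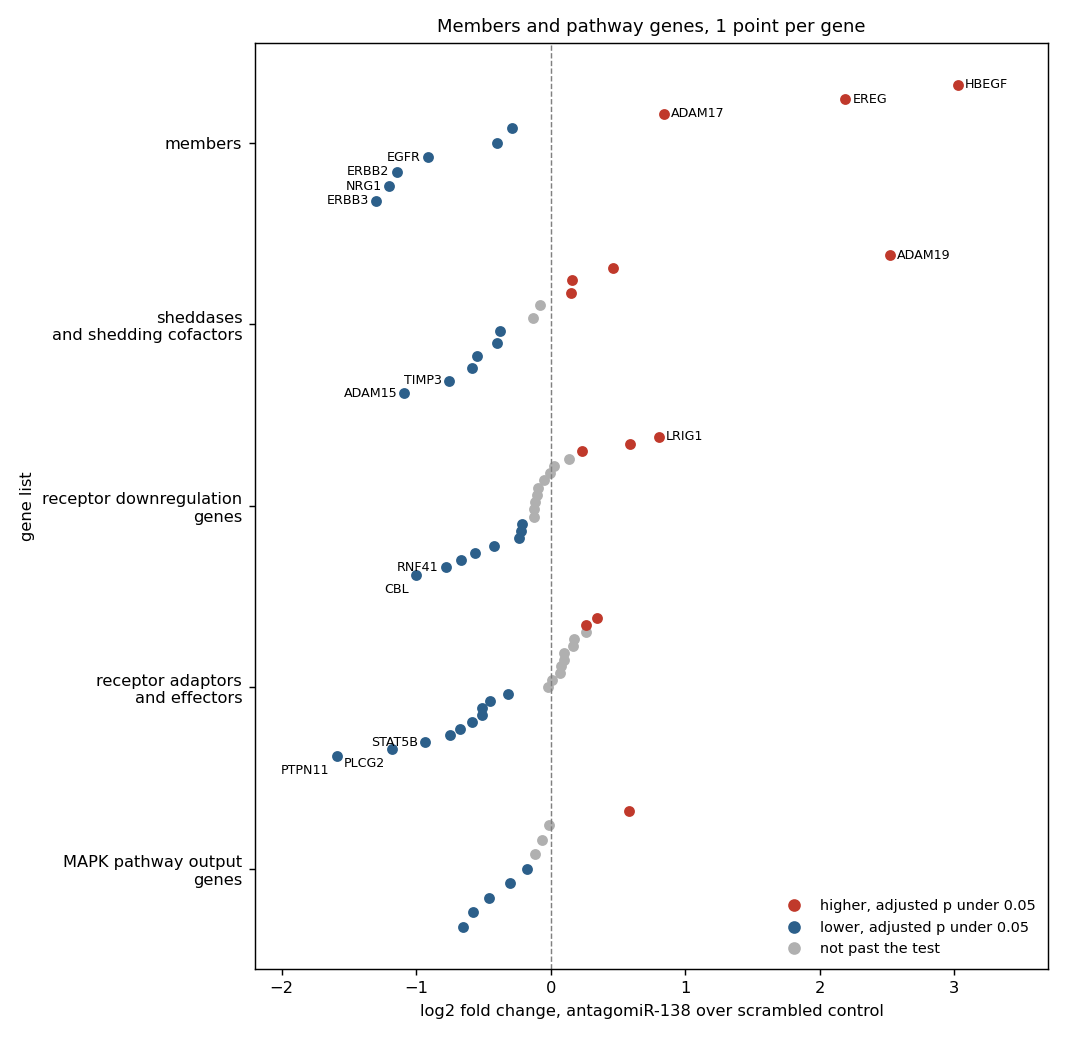
Log2 fold change, antagomiR-138 over scrambled control, of each tested gene of the set and of 4 pathway lists; 1 point per gene, coloured by the limma call at an adjusted p of 0.05, with genes beyond 0.75 in either direction named. HBEGF, ADAM19 and EREG stand furthest to the right. In this fit the 4 pathway lists have more lower than higher genes, where 30.9% of all tested genes were higher and 29.1% lower.

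Over the 6 arrays, the genes whose centred log2 profile was nearest to that of HBEGF were PTX3, HLA-DPA1 and CXCL8, at Euclidean distances of 0.23, 0.28 and 0.35 log2 units, with log2 fold changes of 3.04, 2.89 and 2.79. PTX3 encodes a pentraxin, HLA-DPA1 an MHC class II chain and CXCL8 the chemokine interleukin-8. Nearest to ERBB3 were IGFBP1, SLC29A4 and DHX58, at distances of 0.21, 0.24 and 0.25, with log2 fold changes of −1.37, −1.47 and −1.30. IGFBP1 encodes an insulin-like growth factor binding protein, SLC29A4 a membrane transporter and DHX58 a relative of the RIG-I sensor. With 2 groups of 3 samples this measure mainly ranks genes by the size of their change.

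Markers of other cell types moved in both directions beside these genes. Of 8 fibroblast markers 5 were tested, of which 3 were higher and 2 were lower, and the summed linear signal of the tested markers was 926 to 1042 in antagomiR-138 samples, against 531 to 558 in scrambled control samples. COL1A2 rose by 1.88 on its brighter probe but gave −0.08 on another (adjusted p = 0.483 over all entering probes), PDGFRB fell by 1.70, and COL3A1, PDGFRA and THY1 did not enter the fit. Of 8 leukocyte markers 4 were tested, with 1 higher and 2 lower and a summed signal of 5529 to 6136 in antagomiR-138 samples, against 6279 to 6893 in scrambled control samples. CD14 rose by 1.48 and CSF1R fell by 1.56, while CD68 fell by 0.64 on its brightest probe and gave −0.06 and 0.04 on its other 2 (adjusted p = 0.528 and 0.882 over all entering probes). PTPRC, CD3E and ITGAM did not enter the fit. Of 10 luminal markers 5 were tested, with 3 higher and 1 lower and sums of 4428 to 4464 in antagomiR-138 samples, against 4475 to 4488 in scrambled control samples. Each sum follows its brightest probes, so it does not measure the amount of a cell type. The brightest in antagomiR-138 samples were COL1A2 for fibroblast, CD68 for leukocyte and KRT19 for luminal markers. SPDEF of the luminal markers and COL1A1 of the fibroblast markers entered only through antagomiR-138 arrays. Both are among the higher markers counted above, but their entry favoured such a call, so their tests carry no weight here. The count of lower luminal markers was 0 without scrambled control sample 1 or 2 or antagomiR-138 sample 2 or 3, and that of lower fibroblast markers was 1 without scrambled control sample 3. The part of these markers in the changes of the EGF receptor family was not tested.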

How the data were processed

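Total RNA of 3 antagomiR-138 and 3 scrambled control samples was hybridized as biotinylated cRNA to Illumina bead arrays, and samples were grouped by their labels. The authors deposited probe intensity on a linear scale, background-subtracted and not normalized between arrays (26.1% to 27.5% of values below 0), with a detection p-value for each probe, and a further table of normalized intensity, used only as an alternative. GenomeStudio 1.9.0 is named in the submitters' processing notes, while the methods give BeadStudio and Partek. The methods also name an older array type than the one whose annotation the probes match.

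Genes were named through the platform annotation, in which 30113 of 47322 probes have 1 gene, 8 have several and 17201 are unnamed here. Intensities were processed with neqc in limma 3.58.1 under R 4.3.3. The 11426 genes were tested with lmFit and eBayes with no covariate, two-sided, by a procedure checked on simulated data. Far fewer genes changed in those simulated data than passed here, so that check does not cover a comparison with this many changes. For probes of the members, the other ligands and ERBB4 that no array of a group detected, at most a bound is given. This bound sets the brighter mean against a mean over the dimmer arrays. Each dimmer array adds the higher of its lowest detected signal and its own signal. No bound was computed for marker genes. Precision is limited by the number of arrays.

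The members and gene lists were chosen with earlier results of these data known. The genes named are all members, the other ligands of the family and ERBB4, the 3 largest rises and 3 largest falls in each pathway list among passing genes with separate groups, the 3 genes nearest in profile to the members with the largest rise and fall, and the miR-138 genes; marker genes, and VIM, CD44 and AXL, were named as examples of their lists. The alternatives were other background corrections, normalizations, detection filters, probe rules, thresholds and tests, the replicate number as a block, and leaving out each sample. No slide was fitted as a batch, since the sources used here give none.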

Additional observations from a re-analysis of the deposited data

Results flagged for a closer look

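The EGFR probe annotated to NM_201284 was left out of the fit because it was above background on too few arrays, yet it was called above background on 2 antagomiR-138 arrays and on no scrambled control array. The normalized signals differed by 0.6464 on the log2 scale, antagomiR-138 minus scrambled control. The control values are background, so only the bound of at least 1.02-fold higher can be stated, with no test.

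The BTC probe, for betacellulin, was left out for the same reason and was likewise above background on 2 antagomiR-138 arrays and on no scrambled control array. The difference of its normalized signals, antagomiR-138 minus scrambled control, was 0.5806 on the log2 scale. The control values are background here too, so only the bound of at least 1.10-fold higher can be stated, with no test.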

How the results depend on the processing

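No member changed direction in any of up to 20 other settings. None of them let a dimmer probe alone stand for NRG1, whose other entering probes gave log2 fold changes of 0.18 and 0.33. The members were 3 higher and 6 lower in each setting, with 2 exceptions. When a change of 1.5-fold was also required, 3 were higher and 4 lower (TGFA and ERRFI1 were then lost). When each of the 6 arrays had to detect a probe at p under 0.01, 2 were higher and 5 lower, as EREG and ERBB3 did not enter. Leaving out each sample in turn gave 3181 to 3284 higher and 3038 to 3180 lower genes, and 3 higher and 6 lower members. The requirement of 1.5-fold left 1297 higher and 1576 lower genes. Median scaling gave 3812 higher and 3080 lower, and cyclic loess 3231 higher and 3622 lower. The methods' t-test gave 6856 genes at p under 0.05 and 6130 after adjustment, including all 9 members in both. The deviations of samples with the same replicate number correlated weakly (0.00168, 0.0155 and 0.0526). With 3 samples per group, these values cannot show whether such samples share a culture or a batch. With the replicate number as a block 3355 genes were higher and 3231 lower, with 3 higher and 6 lower members. The largest dependence was on the probe for NRG1 (log2 fold change −1.29 to −0.23 over all settings) and on the background for ERBB3 (−1.84 to −0.84). NRG3 passed with median scaling (0.43, adjusted p = 0.0373) and without scrambled control sample 3 (0.50, adjusted p = 0.0383). Over the settings, the count of lower genes ranged from 2 to 6 among sheddases and cofactors and from 3 to 9 among genes that limit receptor signalling. For receptor adaptors and effectors this count was 6 to 10, and for genes induced by MAP kinase signalling 1 to 5. Signals close to background, as those of EREG in scrambled control and ERBB3 in antagomiR-138, limit the sizes reported.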
